A study of Mus musculus with 2 samples.

Results

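The 10 genes *Hk1*, *Hk2*, *Gpi1*, *Pfkl*, *Pfkp*, *Aldoa*, *Gapdh*, *Pgk1*, *Eno1* and *Ldha* encode enzymes of glycolysis and were taken by name from the 23154 gene rows of both count tables. All 10 had a row, and 9 of them had a count, against 13206 of all genes. They were read in 87 single cells sorted as PK44, which means positive for CD31, CD201, Kit and CD44 and negative for CD41, CD43 and CD45. The study describes PK44 cells as hemogenic endothelial cells, and these came from yolk sacs of E10.0 mouse embryos on a C57BL/6 background. There was 1 condition, with no treatment or genotype named in the labels, in 2 libraries, with 43 cells in replicate 1 and 44 cells in replicate 2. The sources used here do not say whether the libraries came from separate litters, so the p-values below measure only the spread between these libraries, which may be technical. Where the library was used as a block, they measure only how far the difference between groups of cells varied from library to library.

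Glycolysis turns glucose into pyruvate in the cytosol with a net gain of ATP, and lactate dehydrogenase then reduces pyruvate to lactate and restores the NAD+ that the pathway uses. Hexokinase and phosphofructokinase catalyse irreversible, regulated steps, and several steps have isoenzymes that are encoded by separate genes. Endothelial cells are known to draw much of their ATP from glycolysis even where oxygen is present. In hemogenic endothelium, *Runx1* encodes the transcription factor required for the transition to blood, and *Gja5* encodes connexin 40, a gap junction protein of arterial endothelium.

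Transcripts were counted by unique molecular identifiers (UMIs) at their 3′ ends in modified STRT-seq. Counts per cell ran from 13218 to 702028 (median 141577) in replicate 1 and from 51620 to 956593 (median 238898) in replicate 2. The 7 endothelial markers (*Pecam1*, *Cdh5* and others) all had counts and summed to 1999 and 3190 CPM, which is counts scaled to a library total of 1000000. Of the markers of other cell types, *Hba-a1*, *Hba-a2* and *Hbb-bt* of erythroid cells and *C1qa*, *C1qb*, *Cx3cr1* and *Adgre1* of macrophages were at 0 in every cell, but other genes of both lists were not. *Mrc1* had a count in 71 cells (125 and 162 CPM), *Lyz2* in 34 and *Csf1r* in 4, and *Hbb-y* in 13, *Epor* in 12, *Hbb-bh1* in 5 and *Hba-x* in 2. At least 100 counts of each of the matrix genes *Lum*, *Col3a1*, *Col1a2* and *Col1a1* were found in 2 cells of replicate 1 and 1 cell of replicate 2. These cells, called mesenchymal here, go against the label, and the members' share of counts is also given without them.

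Together the 10 genes made up 0.407% of all counts in replicate 1 and 0.402% in replicate 2. Per cell the share ran from 0.0243% to 0.680% in replicate 1 (median 0.403%) and from 0.119% to 0.748% in replicate 2 (median 0.344%). The summed level was thus nearly the same in both libraries, whereas single cells of a library differed many-fold.

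The level of a gene is given as CPM of the summed counts of a library, as mean ± SD over n = 2 libraries. Because 1 UMI marks the end of 1 transcript, CPM does not grow with transcript length. Levels per kilobase of the longest annotated transcript, rescaled to the same total as CPM, are given beside CPM for the members. *Gapdh* (1077 ± 164 CPM), *Ldha* (1072 ± 73.2 CPM) and *Aldoa* (1038 ± 88.9 CPM) stood highest and did not differ beyond their spread. Per kilobase their order was *Aldoa* (1332), *Ldha* (1172) and *Gapdh* (649). *Gpi1* followed at 363 ± 118 CPM, or 227 per kilobase. *Pfkl* (150.0 ± 2.86 CPM), *Pgk1* (146 ± 30.5 CPM) and *Hk1* (133 ± 33.2 CPM) did not differ beyond their spread on the CPM scale. Per kilobase *Pgk1* (160 ± 37.8) stood above *Pfkl* (79.9 ± 0.776) and *Hk1* (62.2 ± 17.2). *Hk2* (35.3 ± 1.58 CPM) and *Pfkp* (29.2 ± 1.59 CPM) were the lowest members with counts, and *Hk2* was the higher one in both libraries on both scales.

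**Figure D1:**
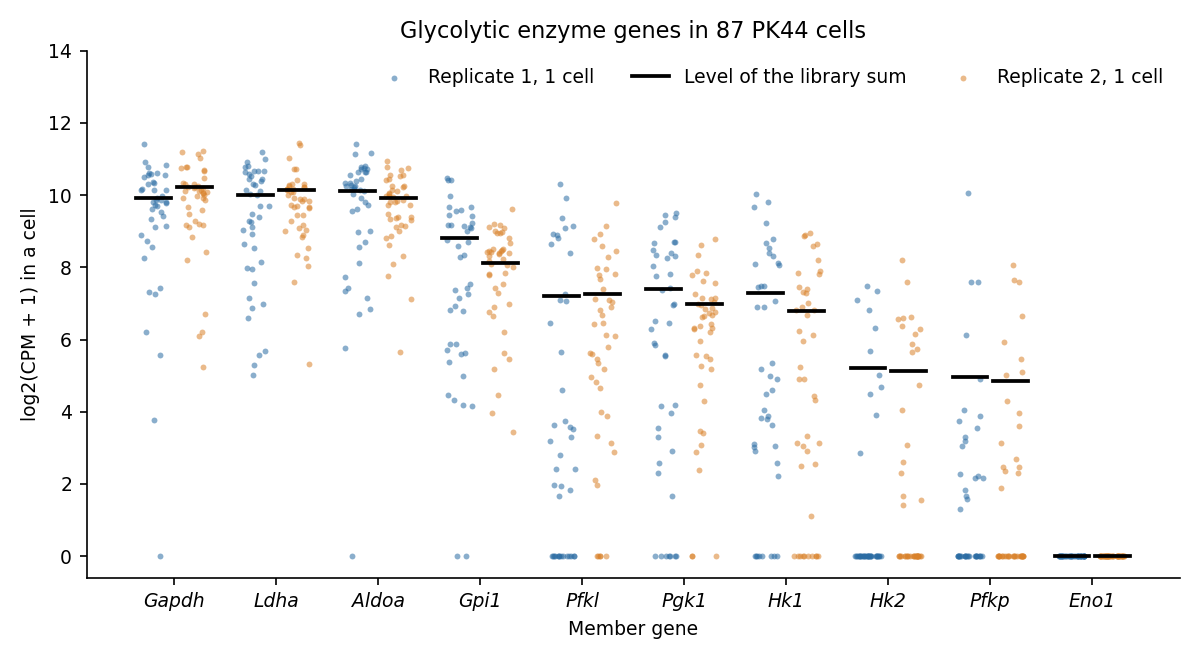
Points are the 87 cells, as log2(CPM + 1) of each member (vertical axis, members along the horizontal axis), with replicate 1 in blue and replicate 2 in orange. Black bars are the level of the library sum. *Gapdh*, *Ldha* and *Aldoa* were near 1000 CPM in both libraries, *Hk2* and *Pfkp* were at 0 in most cells, and *Eno1* was at 0 in all 87 cells.

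*Hk1* and *Hk2* encode hexokinases, which phosphorylate glucose and so trap it in the cell. *Hk1* (chromosome 10 of GRCm38, 62268855 to 62379908, minus strand) was at 157 CPM in the sum of replicate 1 and at 109.9 CPM in that of replicate 2. A count of *Hk1* was found in 35 of 43 and 34 of 44 cells, 79.3% of all cells (exact Clopper-Pearson 95% interval 69.3% to 87.3%, which like all intervals here covers counting error only). *Hk2* (chromosome 6, 82725025 to 82774454, minus strand) was at 36.4 and 34.2 CPM, and a count was found in 11 of 43 and 19 of 44 cells, or 34.5% (24.6% to 45.4%). Both genes had a count in 27 of 87 cells. A further 42 cells had *Hk1* without *Hk2*, 3 had *Hk2* without *Hk1*, and 15 had neither. Of the 30 cells with an *Hk2* count, 27 thus also had an *Hk1* count, beside 79.3% of all cells. The part of detection and depth in this overlap was not tested.

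Of all counts of hexokinase genes, *Hk1* took 74.8% in replicate 1 (72.7% to 76.7%) and 68.0% in replicate 2 (65.9% to 70.0%). *Hk2* took 17.3% and 21.1%. Per kilobase the shares were 74.3% and 67.0% for *Hk1* and 13.4% and 16.2% for *Hk2*. *Hk3* and *Hkdc1* had no count among 1874 and 2054 hexokinase counts. *Hk1* had the most counts of the step in 29 of the 40 cells with any hexokinase count in replicate 1 and in 26 of 39 cells in replicate 2.

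*Gpi1* (chromosome 7, 34201330 to 34230336, minus strand) encodes glucose-6-phosphate isomerase, the only gene of its step in the list. Its level was 446 CPM in one library and 279.9 CPM in the other, and 85 of 87 cells had a count. Its ratio of replicate 2 to replicate 1 was 0.627, the lowest of the 9 members with counts.

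*Pfkl* and *Pfkp* encode the liver and platelet subunits of phosphofructokinase, which commits the sugar to glycolysis. *Pfkl* (chromosome 10, 77986947 to 78010083, minus strand) was at 148 and 152 CPM. It had a count in 29 of 43 cells of the shallower replicate 1 and in 39 of 44 cells of replicate 2. *Pfkp* (chromosome 13, 6579768 to 6648777, minus strand) was at 30.3 and 28.1 CPM with a count in 20 of 43 and 18 of 44 cells. Its equal library levels rested on few cells, since the 3 cells with the most *Pfkp* counts held 83.4% of them in replicate 1 and 60.2% in replicate 2.

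*Pfkl* took 71.5% (69.3% to 73.5%) of the phosphofructokinase counts in replicate 1 and 78.4% (76.7% to 80.0%) in replicate 2. *Pfkp* took 14.6% and 14.5%, and *Pfkm*, the muscle subunit, 13.9% and 7.14%. Per kilobase the share of *Pfkl* was 74.6% and 83.5%, and *Pfkm* (18.8% and 9.86%) passed *Pfkp* (6.57% and 6.63%), so the second place at this step depended on the scale. *Pfkl* led in 18 of 36 cells with a count of the step in replicate 1 and in 29 of 43 cells in replicate 2. Both *Pfkl* and *Pfkp* had a count in 32 of 87 cells, 36 had *Pfkl* alone of this pair, 6 had *Pfkp* alone and 13 had neither.

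*Aldoa* encodes aldolase A, which splits the 6-carbon sugar. It lies on chromosome 7, 126795234 to 126800751, minus strand. The library sums held 1101 and 975 CPM, and 86 of 87 cells had a count. The brain-type aldolase gene *Aldoc* was nearly absent, with 1 count in all against 9831 and 12387 counts of *Aldoa*.

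*Gapdh* (chromosome 6, 125161715 to 125166467, minus strand), the gene of the dehydrogenase that makes glycolytic NADH, was at 961 and 1192 CPM, and 86 of 87 cells had a count. Of the 50-base windows in the last 500 bases of its transcript, 90.5% also occurred in transcripts of other genes, 138 genes in all. Since the authors counted uniquely mapped reads, its level is uncertain. *Pgk1* (X chromosome, 106187100 to 106203699, plus strand), the gene of phosphoglycerate kinase 1, which makes ATP, was at 168 and 125 CPM with a count in 36 of 43 and 41 of 44 cells. Its testis counterpart *Pgk2* had no count against 1500 and 1585 counts of *Pgk1*.

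*Eno1* (chromosome 4, 150236721 to 150248879, plus strand), the gene of the widely expressed enolase, was listed at 0 in all 87 cells. Taking 3 cells as the limit that a count of 0 allows, up to 3.45% of the 87 cells could hold a counted transcript. Of its 50-base windows in the last 500 bases of the transcript, 75.2% also occurred in transcripts of other genes, most often *Eno1b*, a near copy of *Eno1*. *Eno1b* had 11 counts in 6 cells and 116 counts in 20 cells, and the muscle enolase *Eno3* had 36 and 42 counts. All enolase genes together were at 5.26 and 12.4 CPM. The part of the shared sequence in the zero was not tested, and it cannot be read as an absence of enolase.

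*Ldha* (chromosome 7, 46841475 to 46855627, plus strand) encodes the A subunit of lactate dehydrogenase. It was the only member with a count in every cell, and its library levels were 1020.2 and 1124 CPM. Per cell it ran from 31.6 to 2355 CPM (median 832) in replicate 1 and from 38.7 to 2810.3 CPM (median 931) in replicate 2. *Ldha* took 97.7% (97.3% to 98.0%) and 99.6% (99.5% to 99.7%) of the lactate dehydrogenase counts, and *Ldhb*, the heart-type subunit, took the rest. Per kilobase *Ldha* took 96.8% and 99.5%. *Ldhc* had no count. No window of its last 500 bases, nor of those of *Hk1*, *Hk2*, *Pfkl* and *Pfkp*, occurred in another gene. The share was 3.33% for *Aldoa*, 4.21% for *Gpi1* and 7.32% for *Pgk1*.

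**Figure D2:**
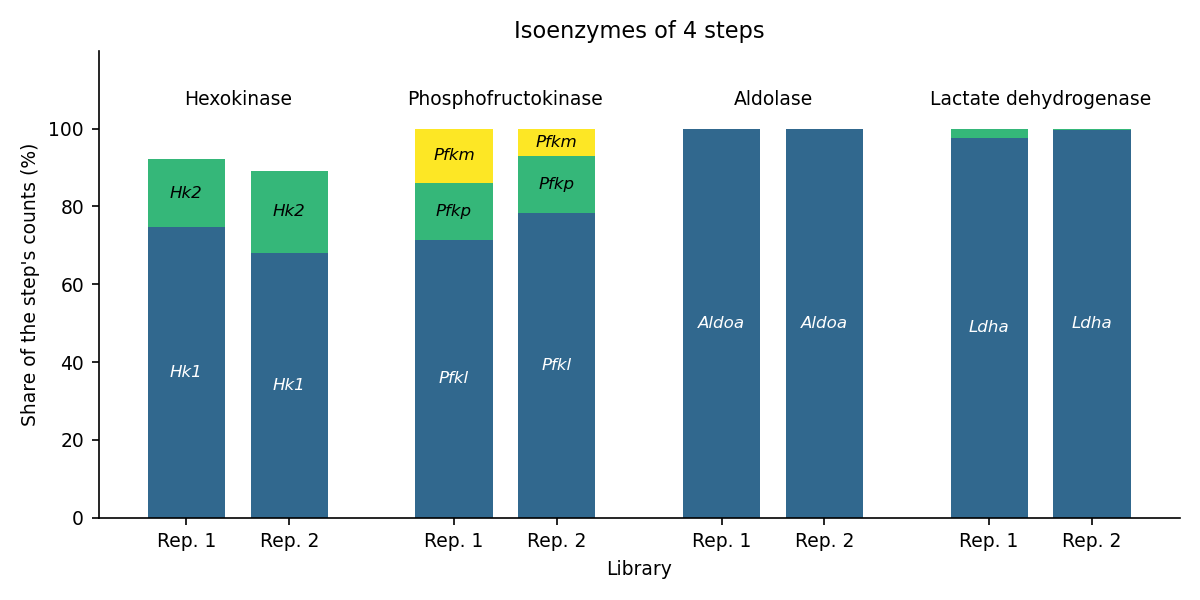
Bars are the libraries (horizontal axis) and show the share of the counts of a step that each drawn isoenzyme gene took (vertical axis, percent), for 4 steps, so that a bar need not reach 100%. *Hk1* took 74.8% and 68.0%, *Pfkl* 71.5% and 78.4%, *Ldha* 97.7% and 99.6%, and *Aldoa* nearly all counts of its step; the unlabelled green tip above *Ldha* is *Ldhb*.

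The members also differed in how evenly cells held them. The coefficient of variation of CPM over cells was 0.637 and 0.501 for *Aldoa*, 0.642 and 0.558 for *Gapdh* and 0.736 and 0.586 for *Ldha* in replicates 1 and 2. It was 0.996 and 0.622 for *Gpi1* and 1.18 and 0.929 for *Pgk1*. It rose to 1.53 and 1.32 for *Hk1*, 1.83 and 1.30 for *Pfkl*, 2.37 and 2.08 for *Hk2* and 4.33 and 2.53 for *Pfkp*. The median over 3661 genes with a count in at least 50% of the cells of both libraries was 1.72 and 1.18. *Hk2* and *Pfkp* did not meet that limit, and the genes behind this median were not matched to the members in level. The most abundant members, *Gapdh*, *Ldha* and *Aldoa*, were thus the most even ones among the members, and the part of counting error in this was not tested.

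To set the members beside *Runx1*, the cells of each library above the library median of *Runx1* CPM were called Runx1-high (21 and 22 cells) and the others Runx1-low (22 and 22 cells). The medians were 52.2 and 10.03 CPM, and 7 and 5 cells lay within 1.5-fold of it, so the classes are ranges and not cell types. Counts were summed per library and class into 4 sums. The 10 members took 0.452% and 0.482% of the counts of Runx1-high cells and 0.325% and 0.283% of those of Runx1-low cells, so the sums of the classes did not overlap. Per cell the medians were 0.475% and 0.474% against 0.323% and 0.279%, with wide overlap between single cells.

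**Figure D3:**
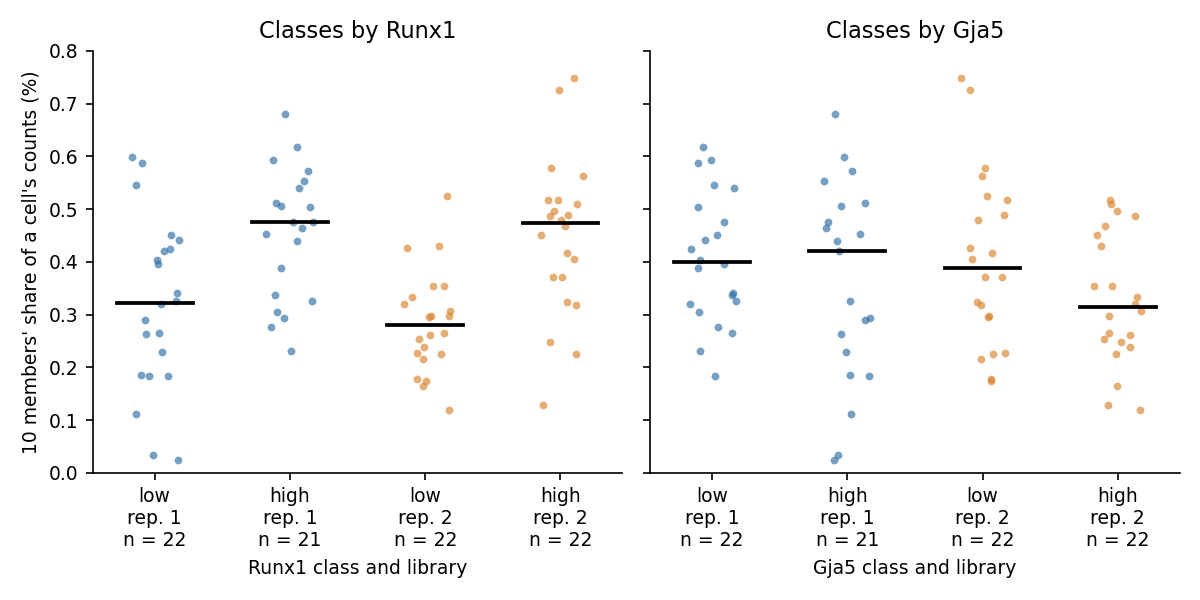
Points are cells and give the share of a cell's counts that the 10 members took (vertical axis, percent), by class and library (horizontal axis). Black bars are medians. In both libraries the median of Runx1-high cells (0.475% and 0.474%) lay above that of Runx1-low cells (0.323% and 0.279%), and the medians by *Gja5* lay closer together.

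*Ldha* was at 1178 and 1396 CPM in the Runx1-high sums of replicates 1 and 2 and at 734 and 719 CPM in the Runx1-low sums. The classes did not overlap, and the median cell was at 1254 and 1174 CPM against 439.8 and 656 CPM. In replicate 1, however, the Runx1-low cells that were also below the median of *Gja5* held 1253 CPM, and those above it 334 CPM, so the low sum there rested on the latter. In replicate 2 these values were 748 and 702 CPM. The log2 fold change was 0.79 ± 0.33 (SE), with an adjusted p of 0.881 in edgeR's quasi-likelihood test over 10629 genes.

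*Pfkl* was at 213 and 179 CPM in Runx1-high cells and at 29.9 and 111.9 CPM in Runx1-low cells. Both libraries had the higher level in the Runx1-high class, but the ratio was 7.11 in replicate 1 and 1.60 in replicate 2. The log2 fold change was 1.45 ± 0.63 (adjusted p = 0.881, edgeR).

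*Hk1* was at 184 and 148 CPM in Runx1-high cells and at 108 and 53.1 CPM in Runx1-low cells, a log2 fold change of 1.00 ± 0.54. *Hk2* was at 47.2 and 51.2 CPM against 16.7 and 8.82 CPM, a log2 fold change of 1.90 ± 0.99. These levels of *Hk2* rested on few cells. A count was found in 8 of 21 against 3 of 22 cells in replicate 1 and in 11 of 22 against 8 of 22 cells in replicate 2. The median cell was at 0 in both classes of replicate 1 and at 0.84 against 0 CPM in replicate 2. The 3 cells with the most *Hk2* counts held 62.8% of them in replicate 1 and 54.8% in replicate 2. Neither hexokinase gene passed the test (adjusted p = 0.937 and 0.920, edgeR), and the Runx1-high sums lay above the Runx1-low sums for both. *Hk1* stayed the leading hexokinase gene in every sum, with 72.0% and 66.0% of the step in Runx1-high cells and 84.9% and 77.7% in Runx1-low cells. *Hk2* took 18.5% and 22.8% in Runx1-high cells and 13.1% and 12.9% in Runx1-low cells.

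*Pgk1* was at 201 and 158 CPM in Runx1-high cells and at 108 and 74.5 CPM in Runx1-low cells, a log2 fold change of 0.94 ± 0.49. The sums of *Aldoa* were 1193 and 1084 CPM against 932 and 812 CPM, and those of *Gapdh* 988 and 1430.1 CPM against 911 and 838 CPM. The log2 fold changes of *Aldoa* and *Gapdh* were small, at 0.35 ± 0.34 and 0.43 ± 0.35. For *Gapdh* the difference rested on replicate 2, where the ratio was 1.71 against 1.08 in replicate 1.

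*Gpi1* was at 493 and 333 CPM in Runx1-high cells and at 362 and 201 CPM in Runx1-low cells. It was higher in the Runx1-high class within each library, but the sums overlapped across libraries. *Pfkp* went opposite ways, with 18.2 CPM against 52.3 CPM in replicate 1 and 39.5 CPM against 11.2 CPM in replicate 2. A single Runx1-low cell of replicate 1 had 1065 CPM of *Pfkp*. In replicate 1, *Pfkp* took 45.4% and *Pfkm* 28.7% of the step in Runx1-low cells, and *Pfkl* took 25.96% of the step there and 82.7% in the Runx1-high cells, whereas in replicate 2 it took 76.3% and 79.3%.

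**Figure D4:**
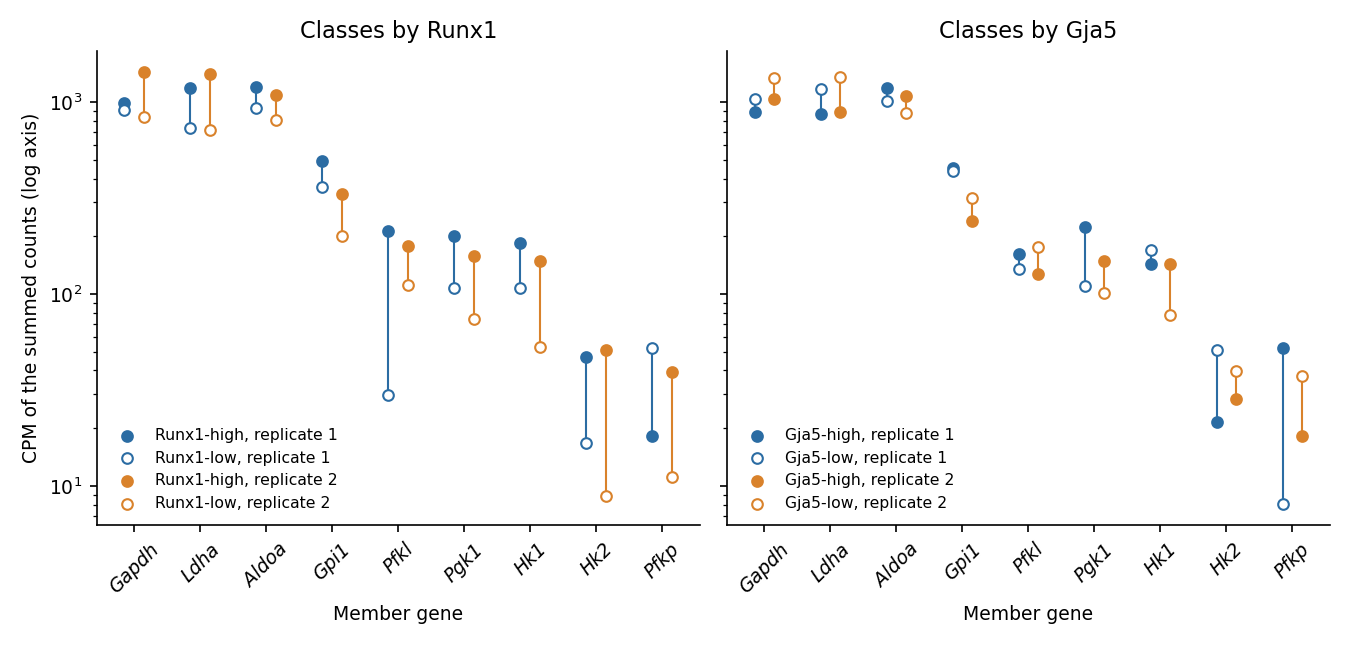
Filled points are the CPM of the summed counts of the high class and open points those of the low class (vertical axis, log scale), for the 9 members with counts (horizontal axis), with replicate 1 in blue and replicate 2 in orange. By *Runx1* (left), 8 of 9 members were higher in the high class of both libraries and *Pfkp* went opposite ways. By *Gja5* (right), *Aldoa* and *Pgk1* were higher and *Hk2*, *Gapdh* and *Ldha* lower in the high class of both.

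Across the 9 members that passed the low-count filter, no member was called at an adjusted p under 0.05 (edgeR), as against 0.00941% of all 10629 genes, which was the single gene *Col1a1*. At an unadjusted p under 0.05 the members held *Pfkl* and *Ldha*, 2 of 9, against 5.53% of all genes. With the library as a block, 1.56% of all genes were called and still no member, the lowest adjusted p being 0.0631 for *Pfkl*. The Runx1-high sums of both libraries lay above both Runx1-low sums for 7 of 9 members (*Hk1*, *Hk2*, *Pfkl*, *Aldoa*, *Gapdh*, *Pgk1* and *Ldha*), and this held for 20.7% of all genes. No member had both sums lower, against 17.1% of all genes. Within each library, 8 of 9 members were higher in the Runx1-high class, against 29.8% of all genes. With cells thinned to 20000 counts and the block, a setting chosen after seeing the data, *Ldha* was called (adjusted p = 0.00155, edgeR), where 1.31% of all genes were, but in 5 further random thinnings it was not called (adjusted p 0.0826 to 0.560). The median log2 fold change was 0.79 over the 9 members and -0.01 over all genes tested.

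Other measures moved with the same classes. Runx1-high cells were deeper, with a median of 260240 counts against 95376 in replicate 1 and 271734 against 213444 in replicate 2. With every cell thinned to 20000 counts and the classes made anew, the members took 0.463% and 0.450% of the counts in Runx1-high cells and 0.303% and 0.304% in Runx1-low cells. All 3 mesenchymal cells were Runx1-low. Without them the classes were also made anew, with 20 and 21 Runx1-high and 21 and 22 Runx1-low cells, so other cells changed class as well. The members then took 0.450% and 0.486% against 0.331% and 0.274%. The 10 cycling markers summed to 3260 and 2969 CPM in Runx1-high cells and 2164 and 2544 CPM in Runx1-low cells, and 7 of the 10 were higher. The 7 endothelial markers summed to 1405 and 2469 CPM against 3076 and 4263 CPM, and all 7 were lower. The 10 erythroid markers summed to 27.1 and 43.7 CPM against 4.41 and 21.4 CPM and the 7 macrophage markers to 124 and 184 CPM against 323 and 200.1 CPM, with the markers named above at 0. The sums of the 6 hematopoietic markers other than *Runx1* went opposite ways, at 312 against 373 CPM in replicate 1 and 199 against 66.4 CPM in replicate 2. Their median cell was higher in the Runx1-high class of both libraries, at 95.3 against 50.8 CPM and 60.7 against 13.2 CPM. The part of these transcripts in the result was not tested.

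Genes around the members were read from fixed lists. Of 20 other glycolytic enzyme genes, 9 passed the filter, 8 were higher and 1 lower in Runx1-high cells, and none was called. *Pkm*, the gene of pyruvate kinase M and the highest of the other genes for glycolysis and glucose uptake, was at 919 and 1190.0 CPM against 680 and 748 CPM (log2 fold change 0.53 ± 0.34). *Tpi1*, the triosephosphate isomerase gene, was at 252 and 380.1 CPM against 224 and 288 CPM. Of 9 genes for glucose and lactate transport, 5 passed, 3 were higher and 2 lower and none was called. The glucose transporter gene *Slc2a1* was at 118 and 89.2 CPM against 80.4 and 122 CPM, and *Bsg*, the gene of the chaperone of lactate transporters, at 403 and 483 CPM against 328 and 703 CPM, so both went opposite ways in the libraries.

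Of 16 regulators of glycolytic flux, 13 passed, 10 were higher and 3 lower, and none was called. *Pdhb* of the pyruvate dehydrogenase complex was at 147 and 98.6 CPM against 87.3 and 163 CPM. With the library as a block, *Pdk3*, the gene of a kinase that inhibits pyruvate dehydrogenase, was the only regulator called, at 60.4 and 69.6 CPM against 1.26 and 4.31 CPM (adjusted p = 0.0316, edgeR), and it was named after its values were seen. A count of *Pdk3* was found in 12 of 43 and 31 of 44 cells. The 3 cells with the most *Pdk3* counts held 60.5% of them in replicate 1 and 57.0% in replicate 2. Of 8 pentose phosphate genes all passed, 6 were higher and 2 lower, and none was called. Of 20 hypoxia factors and targets 17 passed, with 8 higher and 9 lower (median log2 fold change -0.04). Among these *Epas1*, the gene of the hypoxia-inducible factor HIF-2 alpha, was called with the block as lower in Runx1-high cells. It too was named after its values were seen. The study also counts *Epas1* among the genes of its endothelial score, and the 7 endothelial markers were lower in Runx1-high cells as well. The hypoxia list as a whole, with 8 higher and 9 lower, was split between the directions.

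The sequence ACGTG, a form of the core of the hypoxia response element, was searched on both strands. The search covered the 250 bases before the RefSeq start sites of the 10 members (GRCm38.p6), all of which matched by symbol. Other forms of the core were not searched. ACGTG was found for 4 of 10 members (5 of 16 windows), as against 18.5% of 27025 genes and 16.6% of 32851 windows. A window with a match is shown for each of the 4 genes, 5′ to 3′ on the strand of the gene with each match in capitals. Matches on both strands that overlap as CACGTG, the E-box, run together. The windows are chr6:82774455-82774704 (minus strand) for *Hk2*, chr7:126799255-126799504 (minus strand) for *Aldoa*, chrX:106186850-106187099 (plus strand) for *Pgk1* and chr7:46845554-46845803 (plus strand) for *Ldha*.
*Hk2*: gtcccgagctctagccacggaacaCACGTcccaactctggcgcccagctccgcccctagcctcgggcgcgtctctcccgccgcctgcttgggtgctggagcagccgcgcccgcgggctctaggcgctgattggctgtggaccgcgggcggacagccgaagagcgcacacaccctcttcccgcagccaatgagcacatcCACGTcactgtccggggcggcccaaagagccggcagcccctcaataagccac
*Aldoa*: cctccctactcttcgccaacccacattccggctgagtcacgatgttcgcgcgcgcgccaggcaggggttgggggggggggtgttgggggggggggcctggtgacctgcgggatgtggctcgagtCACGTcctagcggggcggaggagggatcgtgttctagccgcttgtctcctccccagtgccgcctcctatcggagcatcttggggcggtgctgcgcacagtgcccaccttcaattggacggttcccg
*Pgk1*: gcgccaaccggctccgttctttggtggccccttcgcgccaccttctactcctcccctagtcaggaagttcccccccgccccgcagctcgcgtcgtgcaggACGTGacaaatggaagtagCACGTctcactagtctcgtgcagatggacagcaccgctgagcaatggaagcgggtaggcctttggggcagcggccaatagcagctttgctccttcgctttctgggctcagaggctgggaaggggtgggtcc
*Ldha*: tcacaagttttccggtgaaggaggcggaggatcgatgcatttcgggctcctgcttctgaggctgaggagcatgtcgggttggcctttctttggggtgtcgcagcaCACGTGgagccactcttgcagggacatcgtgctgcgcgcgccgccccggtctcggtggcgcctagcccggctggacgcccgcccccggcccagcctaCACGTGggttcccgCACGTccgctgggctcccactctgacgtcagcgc
*Ldha* held 3 such places, 2 of them as CACGTG, *Hk2* and *Pgk1* 2 each and *Aldoa* 1. The other window of *Ldha* held none, and the first bases after the start of the window shown were not found in a GENCODE M21 transcript. *Aldoa* had 2 windows with a match, which overlap, and 1 without. A match is a description of the letters and no shown site, and no binding was measured in these cells.

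By *Gja5* the members split. The cells above the library median of *Gja5* CPM (10.01 in replicate 1 and 147 in replicate 2) were called Gja5-high, with 21 and 22 cells against 22 and 22 cells, and 14 and 9 cells lay within 1.5-fold of the median. These are the same cells as above, so the comparisons are not independent. The 10 members took 0.400% and 0.370% of the counts of Gja5-high cells and 0.413% and 0.432% of those of Gja5-low cells. The difference of the sums was small in replicate 1 and larger in replicate 2, and single cells overlapped widely. Per cell the medians were 0.420% and 0.314% in Gja5-high cells against 0.400% and 0.388% in Gja5-low cells. By the median cell the libraries thus went opposite ways.

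*Ldha* was at 866 and 885 CPM in Gja5-high cells and at 1175 and 1354 CPM in Gja5-low cells, a log2 fold change of -0.54 ± 0.28. *Hk2* was at 21.6 and 28.6 CPM against 51.3 and 39.5 CPM (-0.87 ± 0.77). For these members both Gja5-high sums lay below both Gja5-low sums. *Gapdh* was lower in both libraries, at 889 and 1038 CPM against 1033 and 1341 CPM, with sums that overlapped. In the other direction, *Pgk1* was at 225 and 149 CPM in Gja5-high cells against 111 and 102 CPM in Gja5-low cells (0.80 ± 0.44), and *Aldoa* was at 1189 and 1074 CPM against 1011 and 879 CPM (0.25 ± 0.29). With thinned cells, in a single draw, the log2 fold change of *Hk2* turned to 0.34 and that of *Pgk1* to -0.056. The classes made anew in that draw held 14 Gja5-high and 28 Gja5-low cells in replicate 1. In 5 further random thinnings *Hk2* was at -1.14 to -1.29 where it passed the filter, which it did not in all of them. There *Pgk1* ran from -0.060 to 0.43 and *Aldoa* from -0.13 to 0.082, so the directions of *Pgk1* and *Aldoa* were not stable. *Hk1*, *Gpi1*, *Pfkl* and *Pfkp* went opposite ways in the libraries.

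No gene was called in this comparison (edgeR, 0% of 10653 genes and 0 of 9 members). At an unadjusted p under 0.05 there were 433 genes (4.06%) and no member, and DESeq2 called 89 genes and no member. With the library as a block 0.882% of all genes were called and no member, with adjusted p from 0.183 for *Ldha* to 1.00. Sums that did not overlap were higher for 2 of 9 members, against 17.5% of all genes, and lower for 2 of 9 members, against 16.8%. Within each library, 2 of 9 members were higher (27.1% of all genes) and 3 of 9 lower (26.9%) in the Gja5-high class. With thinned cells and the block, 0.658% of genes were called and no member. The median log2 fold change was -0.12 over the members and 0.00 over all genes. The counts of members were thus near those of all genes in each direction. The 7 endothelial markers were all higher in Gja5-high cells, at 2864 and 3754 CPM against 1126 and 2646 CPM in sum, and depth differed little, with medians of 161402 against 140016 and 230499 against 246822 counts. Cycling markers were higher for 9 of 10 genes (3344 and 2956 CPM against 2394 and 2646 CPM). Sums of mesenchymal markers were higher for 6 of 6 (984 and 658 CPM against 704 and 21.2 CPM). Of the mesenchymal cells, however, 1 was Gja5-high and 1 Gja5-low in replicate 1, and 1 was Gja5-high in replicate 2. The median cell of these markers went opposite ways, at 45.01 against 48.1 CPM in replicate 1 and 29.8 against 22.9 CPM in replicate 2. Macrophage markers summed to 243 and 86.3 CPM against 147 and 290.4 CPM, and hematopoietic markers to 257 and 86.0 CPM against 410.1 and 203 CPM. The median cell of the hematopoietic markers went opposite ways, at 31.6 against 107 CPM in replicate 1 and 51.7 against 13.6 CPM in replicate 2. The part of these transcripts in the members' values was not tested. Of the other lists, 0 of 5 transport genes, 3 of 13 flux regulators, 2 of 8 pentose phosphate genes and 13 of 18 hypoxia genes that passed the filter were higher, against 49.9% of all genes. The median log2 fold change of the hypoxia genes was 1.02. Their sums did not overlap and were higher for 9 of 18 genes and lower for 1, beside the 17.5% and 16.8% of all genes. At an unadjusted p under 0.05 (edgeR) there were 5 of the 18, beside 4.06% of all genes. The hypoxia list was not tested as a set. *Epas1*, at 347 and 423 CPM against 116 and 181 CPM, was called with the block (adjusted p = 0.0156, edgeR). It is also a gene of the study's endothelial score, and it was higher in Gja5-high cells as the 7 endothelial markers were.

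Across single cells, Spearman's rho of the CPM of a member with *Runx1* was above 0 for all 9 members with counts in both libraries (43 and 44 cells). The median over members was 0.22 in replicate 1 and 0.31 in replicate 2, and over 3660 genes with a count in at least 50% of the cells of both libraries it was 0.12 and 0.11. *Hk2* and *Pfkp* did not meet that limit, and over the 7 members that did the median was 0.21 and 0.31. In replicate 2 the highest values were those of *Gapdh* (0.54), *Ldha* (0.52), *Hk1* (0.47) and *Hk2* (0.47). In replicate 1 they were lower, with 0.17 for *Gapdh*, 0.21 for *Ldha*, 0.26 for *Hk1* and 0.23 for *Hk2*, and *Gpi1* stood highest at 0.33. The points of a library share its depth differences, and rho of a member with the depth of the cell was 0.29 and 0.49 for *Ldha* and 0.07 and 0.44 for *Gapdh*. With thinned cells the median over members was 0.25 and 0.22, and *Pfkl* fell to 0.04 and -0.06.

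With *Gja5*, *Ldha* had a rho of -0.27 and -0.43 and *Gapdh* of -0.27 and -0.42. The other members lay between -0.16 and 0.24, and the median over all genes was 0.02 and 0.00. With thinned cells *Gapdh* stayed at -0.30 and -0.48, and *Ldha* was at -0.12 and -0.39. *Gpi1* and *Pfkp* were then also below 0 in both libraries.

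**Figure D5:**
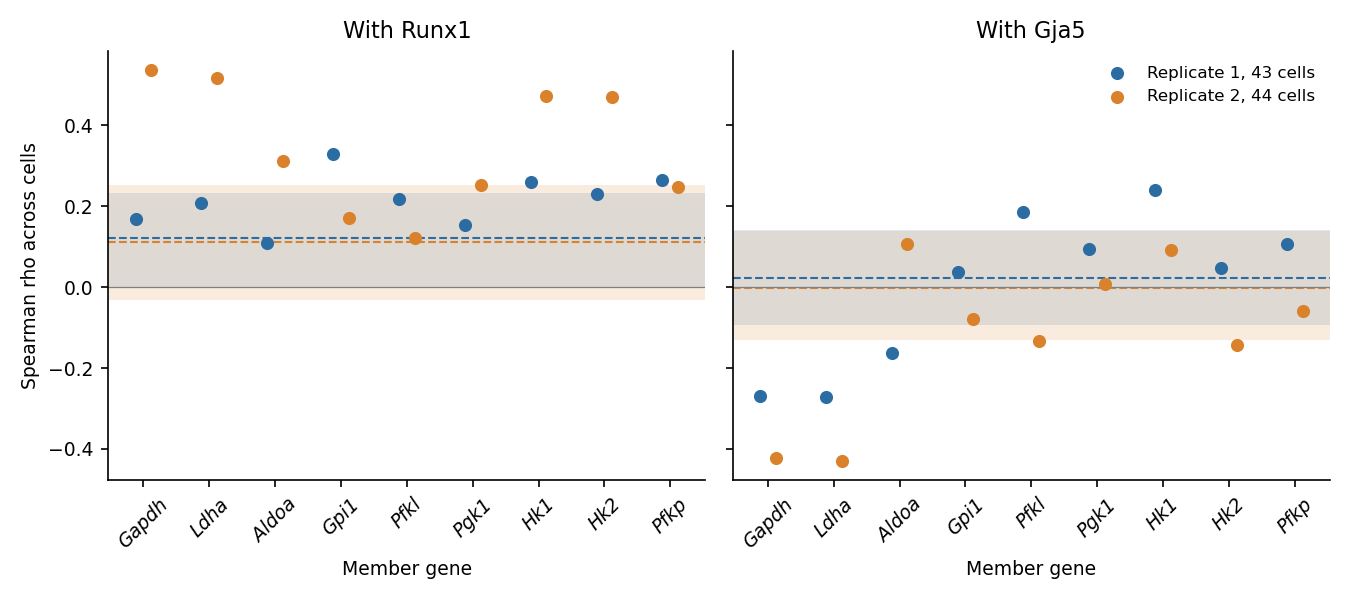
Points are Spearman's rho across the cells of a library (vertical axis) between the CPM of a member (horizontal axis) and that of *Runx1* (left) or *Gja5* (right), with replicate 1 in blue and replicate 2 in orange. Dashed lines and bands are the median and quartiles over 3660 genes. All 9 members were above 0 with *Runx1*, and *Gapdh* and *Ldha* lay between -0.27 and -0.43 with *Gja5*.

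Among the 36 pairs of the 9 members, rho had a median of 0.12 in replicate 1 (range -0.23 to 0.40) and 0.19 in replicate 2 (-0.13 to 0.59), and 27 and 33 pairs were above 0. The median of members with all other genes was 0.09 and 0.06. The members were therefore only weakly tied to each other across cells. The genes outside the list whose CPM was most like the summed CPM of the members, by the lower rho of both libraries, were *Slc25a5* (0.49 and 0.68), *Mycn* (0.49 and 0.53), *Rpl27* (0.45 and 0.44), *Mif* (0.43 and 0.69) and *Gart* (0.43 and 0.44). *Slc25a5* encodes an ADP/ATP carrier of mitochondria, *Mycn* a transcription factor of the Myc family, *Rpl27* a ribosomal protein, *Mif* a cytokine and *Gart* an enzyme of purine synthesis.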

How the data were processed

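Modified STRT-seq was performed on single PK44 cells of the E10.0 yolk sac. Reads were assigned to cells by barcode by the authors, who aligned them to mm10 with HISAT2 2.1.0 and then counted uniquely mapped reads with HTSeq (version not given in the sources used here) and collapsed UMIs. The deposited values were thus raw counts per gene and cell. The methods state that cells with at most 2000 genes or 10000 transcripts, or with too many reads or genes, were removed, but at least 1 deposited cell of replicate 1 had 1941 genes. All 87 cells were kept, with no doublet caller. No cell number was shared between the tables. Barcode tables were not used here.

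Positions came from GENCODE M21 (GRCm38), where 22124 of 23154 symbols (95.6%) matched, and promoter sequences from RefSeq (GRCm38.p6). Counts were summed per library and class and tested with edgeR 4.0.16 in R 4.3.3 (quasi-likelihood test after filterByExpr and TMM). P-values were adjusted by Benjamini-Hochberg over all genes but the one that made the classes, at a threshold of 0.05. The main design had no block, a choice taken because the methods of the study name ROC and rank sum tests between cells and no block. Those tests were between cells and are no ground for leaving out a block between sums. Equal replicate numbers mark a shared library and hence pair the sums, which the main fit ignored and the block used. The adjusted p of a member is from the fit without the block unless the block is named. Deviations of the replicate 1 sums from their class means correlated at 0.177 (*Runx1*) and 0.184 (*Gja5*) across genes. Alternatives were a library block, DESeq2 1.42.0, other size factors, no filter, the highest and lowest 14 cells of each library, cells with and without a count, cells thinned to 20000 counts (1 cell of replicate 1 was shallower), no mesenchymal cells, levels per kilobase and each library alone. Scripts were tested on simulated counts. Python 3.11.15, pandas 2.3.3, NumPy 2.4.6, SciPy 1.17.1 and matplotlib 3.10.9 were used.

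The members, lists, tests and alternatives were chosen with earlier results of these data known. Named genes were all members, *Runx1*, *Gja5*, isoenzymes of the members, the 5 highest other genes for glucose uptake, glycolysis, lactate export and their regulation, those called in a main comparison, and the 5 genes most like the summed members. A few genes of these lists are not reported here. AGM cells were not analysed here.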

Additional observations from a re-analysis of the deposited data

How the results depend on the processing

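With 2 libraries and 4 sums per comparison, only large differences could pass the adjustment, and for scarce members a few cells set the level. In the Runx1 comparison edgeR called 1 gene, against 166 with the library as a replicate block, 136 with DESeq2, 67 without the low-count filter and 3 with thinned cells, and 0 with the highest and lowest 14 cells, with cells split by a count, and without the mesenchymal cells. Chosen after seeing the data, the block called 147 genes without the mesenchymal cells and 90 with thinned cells. In the Gja5 comparison it called 0 genes, against 94 with the replicate block, 89 with DESeq2 and 50 without the filter, and, chosen later, 104 with the block without the mesenchymal cells and 46 with the block on thinned cells. No cell of replicate 2 lacked a *Gja5* count, so that split was not run. Members called were 0 in both comparisons under every setting but the block on thinned cells by *Runx1*, which called 1 member, *Ldha* (log2 fold change 1.03, adjusted p = 0.00155, edgeR, where 1.31% of genes were called). In 5 further random thinnings, chosen later, its adjusted p with the block was 0.0826 to 0.560 and no member was called, so that call rested on a single draw. Over all settings the adjusted p of *Ldha* by *Runx1* ran from 0.00155 to 0.925 and that of *Pfkl* from 0.0631 to 0.995. The block changed no call of a member with all counts. The log2 fold change of *Pfkp* by *Runx1* was -0.19 and turned to 0.11 with the block, 0.47 with the highest and lowest 14 cells, 0.70 with cells split by a count and 0.031 with the block without the mesenchymal cells. By *Gja5*, *Hk1* turned to -0.089 with the highest and lowest 14 cells, and thinned cells turned *Hk1* to -0.30, *Hk2* to 0.34, *Pfkl* to 0.51, *Pfkp* to -1.74 and *Pgk1* to -0.056 (with the block -0.32, 0.40, 0.44, -1.66 and -0.048). These thinned values came from a single draw, and in the further random thinnings *Hk2* by *Gja5* stayed negative where it passed the filter. The cause of these turns was not tested. For the 8 members other than *Pfkp* the direction by *Runx1* stayed the same under every setting. The shares of the leading isoenzymes and the median correlations moved by less than 1 SD over the 2 libraries under every setting run. Levels of single members moved by more in 15 of 60 alternatives. Leaving out 1 of 2 libraries can never move a value by 1 SD, and *Eno1* was at 0 under every setting. Those alternatives could therefore not count as moved, and they say nothing about stability.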

Other observations

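Cells were also sorted by both genes at once, which gave 4 classes of 9 to 13 cells per library and no test. The 10 glycolytic enzyme genes took 0.422% and 0.494% of the counts in Runx1-high Gja5-low cells of replicates 1 and 2, and 0.485% and 0.463% in cells high for both. They took 0.393% and 0.275% in cells low for both and 0.273% and 0.287% in Runx1-low Gja5-high cells. *Ldha* was at 334 and 702 CPM in Runx1-low Gja5-high cells, at 1253 and 748 CPM in cells low for both, at 1221 and 1088 CPM in cells high for both and at 1140.1 and 1591 CPM in Runx1-high Gja5-low cells. *Pgk1* was at 326 and 227 CPM in cells high for both genes and at 91.2 and 115 CPM in Runx1-high Gja5-low cells. In replicate 1 the Runx1-low Gja5-high cells were shallow, with a median of 78277 counts against 128053 to 272196 in the other classes.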
